A study of Homo sapiens with 6 samples.

Results

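The transcripts of 3 actin genes, ACTB, ACTG1 and ACTA2, and of the 4 tropomyosin genes, TPM1, TPM2, TPM3 and TPM4, were followed across a control and 2 groups of cells labelled as ARID1A knockouts. They were taken as every row of the deposited transcript table whose gene ID maps to one of these 7 symbols, which gave 7 of 58174 gene IDs and 115 of 199167 transcripts. Of the 115 transcripts, 93 had a count above 0 in at least 1 column, 22 were at 0 in every column, and 53 had a mean of at least 1 CPM (estimated counts scaled to a common library size by TMM). The genes were chosen by their counts and TPM in these same NC, KO1 and KO2 columns, as seen in an earlier pass over the table, with no threshold, so their differences between groups are descriptions, with no test.

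RNA came from MDA-MB-231, an established line of triple-negative breast cancer cells, and was made into stranded total RNA libraries. The groups are NC (genotype control), KO1 and KO2 (genotype ARID1A knockout), with 2 samples each. The labels give no guide, clone, passage or treatment, so it is not known whether KO1 and KO2 are 1 clone each or pools of cells. The table holds 1 column per group, with total estimated counts of 25801499 to 26798753, so there is no spread between replicates for any value. Bracketed ranges are exact 95% intervals (Clopper-Pearson) for counting error only. They may be too narrow even for that, because the same molecule can be counted more than once without identifiers. They also leave out how fragments were divided among overlapping transcripts. RNA of the targeted gene, ARID1A, measured 77.3 CPM (NC), 45.7 CPM (KO1) and 83.9 CPM (KO2), so it was below the control in the column labelled KO1 and not in the one labelled KO2. Vimentin (VIM) and CD44, known for their high levels in this line, were at 2925 to 4719 and 664 to 764 CPM, while PGR was at 0 and ESR1 had 14 counts in KO2 and 0 in the other columns. They belong to a list of 7 marker genes for this line, of which 5 had a mean of at least 1 CPM. By the size rule given below, 2 of these were higher and 1 lower in KO1 against NC (15.4% and 17.4% of all measured genes). In KO2 against NC 1 was higher (11.0% of genes) and none lower. Neither VIM nor CD44 was among those that passed. In KO1 the passing genes were the other measured genes of the list, EGFR, KRT18 and ERBB2, so not all markers of this line were level. The share of mitochondrially encoded genes in all counts was 12.8% (NC), 20.5% (KO1) and 16.9% (KO2).

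Actin monomers polymerise into the filaments that give a cell its shape, its contractile cables and its protrusions. Beta actin (ACTB) and gamma actin (ACTG1) are the cytoplasmic forms of nonmuscle cells, and ACTA2 is the smooth muscle form that myofibroblasts also make. Tropomyosins are coiled-coil dimers that lie along the filament and set which myosins, severing proteins and crosslinkers reach it. Each tropomyosin gene makes several proteins from alternative starts and exons, with long forms from a distal start and, in TPM1, TPM3 and TPM4, short forms from an internal start. Many of these genes are known targets of serum response factor (SRF), which binds a DNA element called the CArG box with cofactors that sense free actin monomers. Transcripts are named here as in GENCODE release 29, whose classes include retained intron (an intron kept in the RNA) and nonsense-mediated decay (a reading frame that ends early enough to mark the RNA for destruction).

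ACTB-204 and ACTB-207, of which 1 leads ACTB in each column, differ in how an intron inside the coding region is handled. ACTB-201 removes this intron, ACTB-204, of the decay class, includes a cassette exon from it, and ACTB-207, of the retained-intron class, keeps it whole. ACTB-204 and ACTB-207 share their deposited start and end and 1845 bases, which is all of ACTB-204. Another 400 bases of intron are in ACTB-207 only.

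The sequences below show how alike the members are where reads must be assigned to one of them. They come from GENCODE release 29 on GRCh38 (hg38), 5′ to 3′. The first pair gives the first 60 coding bases of beta and gamma actin, at chr7:5529598-5529657 and chr17:81512295-81512354 (minus strand), with the bases that differ in capitals. The last 5 give the first 60 coding bases of tropomyosin transcripts with the start codon in capitals. Of these, TPM4-201 (chr19:16076566-16076625, plus), TPM1-208 (chr15:63048576-63048635, plus) and TPM3-212 (chr1:154183060-154183119, minus) begin at the internal start. TPM4-202 (chr19:16067625-16067684, plus) begins at the distal start, and TPM2-203 (chr9:35689758-35689817, minus) with the matching exon of TPM2. The deposited positions of TPM1-208 and TPM2-203 differ from those of release 29, so their models there may differ too.
ACTB: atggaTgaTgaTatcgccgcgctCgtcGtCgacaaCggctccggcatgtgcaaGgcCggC
ACTG1: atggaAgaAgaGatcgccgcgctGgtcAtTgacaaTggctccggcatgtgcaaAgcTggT
TPM4-201: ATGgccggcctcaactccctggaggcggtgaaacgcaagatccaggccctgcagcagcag
TPM1-208: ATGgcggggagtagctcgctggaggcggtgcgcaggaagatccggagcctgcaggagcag
TPM3-212: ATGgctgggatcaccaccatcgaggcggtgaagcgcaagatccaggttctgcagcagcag
TPM4-202: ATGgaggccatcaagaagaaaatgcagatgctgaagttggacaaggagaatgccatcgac
TPM2-203: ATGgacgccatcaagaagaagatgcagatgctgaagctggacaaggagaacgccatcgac
The coding sequences of ACTB and ACTG1 were identical at 1027 of 1125 bases (91.3%), and the longest run shared by ACTB-201 and ACTG1-201 was 59 bases. The internal first coding exons of TPM4, TPM1 and TPM3 were 62.9% to 72% identical in pairs. The distal first coding exon of TPM4-202 was 86.0% identical to that of TPM2-203 and 33.3% identical to the matching stretch of TPM4-201. Start choice in TPM4 therefore exchanges the front of the protein, and the distal front resembles that of another gene more than the internal front of its own.

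Summed over transcripts, all 7 genes were lower in both knockout columns than in the shared control column, by amounts that differed from gene to gene. A gene was counted as lower or higher by a size rule, which asks for a difference of at least 2-fold in CPM, a counting interval that excludes equality and a mean of at least 1 CPM. In KO1 against NC, 4 of 7 were lower by this rule (ACTG1, ACTA2, TPM1 and TPM2), where 17.4% of the 14524 measured genes were lower and 15.4% higher (32.8% in all). In KO2 against NC, 2 of 7 were lower (ACTA2 and TPM4), where 9.98% of genes were lower and 11.0% higher (21.0% in all). In KO2 against KO1, TPM4 alone was lower and none was higher, where 11.2% of genes were lower and 14.9% higher (26.1% in all). ACTG1 was just under the cut there, at a log2 fold of 0.96, and its side of the cut depended on the scaling. The median log2 fold over the members was -1.11 in KO1 and -0.76 in KO2, beside -0.01 and 0.00 over all measured genes. Both comparisons use the same NC column, so they are not independent of each other.

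Levels per length were read from the deposited TPM, summed per gene. ACTB was the highest member at 5903 TPM in NC, 4250 TPM in KO1 and 4591 TPM in KO2. ACTG1 was at 1327, 311 and 967 TPM, and TPM4 at 810, 531 and 250.01 TPM. TPM3 followed at 111, 59.0 and 97.5 TPM, TPM1 at 100.5, 34.8 and 59.9 TPM, TPM2 at 22.7, 7.86 and 15.0 TPM, and ACTA2 at 5.96, 1.10 and 1.87 TPM. The order was the same in NC and KO2, and in KO1 TPM4 stood above ACTG1. Without replicates it cannot be said which neighbours in this order, such as TPM3 and TPM1 in NC, differ beyond their spread. In bulk RNA, fewer cells that make a transcript and less of it per cell cannot be told apart. ACTB made up 81.6% of the summed actin TPM in NC, 93.2% in KO1 and 82.6% in KO2. These sums take in every transcript class, and in KO1 87.1% of ACTB TPM was of the decay class. Protein-coding transcripts alone were at 1907, 483 and 1412 TPM for ACTB and at 1125, 225 and 812 TPM for ACTG1 (NC, KO1, KO2). The shares therefore describe summed RNA and not the actin protein. TPM4 made up 77.6% of the tropomyosin TPM in NC, 83.9% in KO1 and 59.2% in KO2. The 2 knockout columns thus stood on opposite sides of the control for the share of TPM4 in the summed tropomyosin TPM. The plot of gene levels shows these values.

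**Figure D1:**
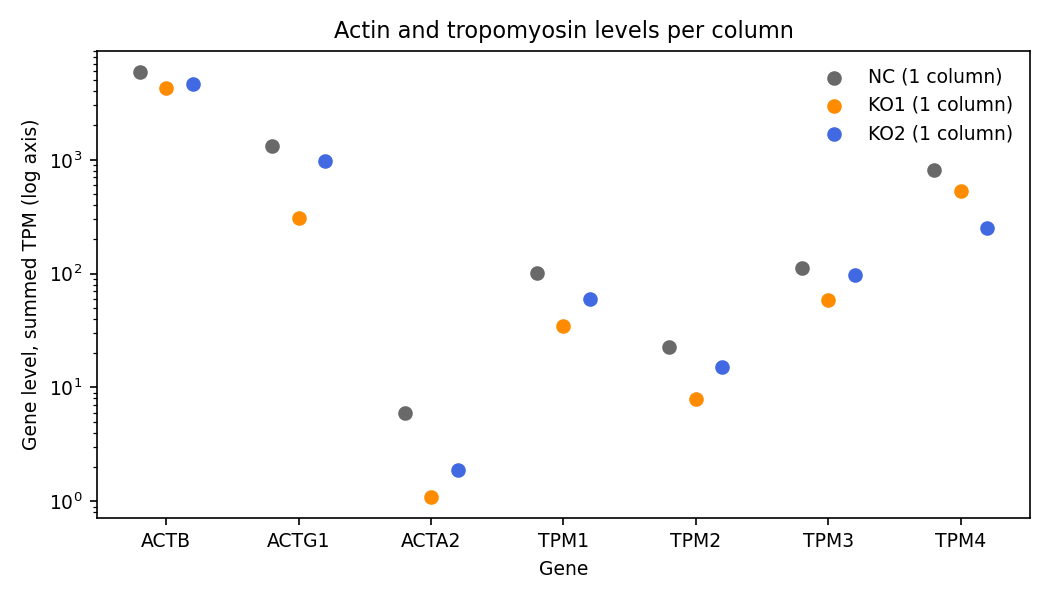
Summed deposited TPM (log axis) of the 7 genes in the NC, KO1 and KO2 columns, 1 point per column. ACTB ran from 4250 to 5903 TPM and ACTA2 from 1.10 to 5.96 TPM, and the NC point was the highest of the 3 for every gene.

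On the CPM scale used for folds, ACTB was at 6291 CPM in NC, 5851 CPM in KO1 and 4756 CPM in KO2, which is 1.08-fold (1.07 to 1.08) and 1.32-fold (1.31 to 1.33) lower. ACTG1 was at 1219, 427 and 834 CPM, that is 2.85-fold (2.79 to 2.92) lower in KO1 and 1.46-fold (1.44 to 1.49) lower in KO2. TPM4 was at 1323, 1077 and 354 CPM, that is 1.23-fold (1.21 to 1.25) lower in KO1 and 3.74-fold (3.66 to 3.82) lower in KO2. Gamma actin thus had its larger difference in KO1 and TPM4 in KO2, where TPM4 was also 3.04-fold (2.97 to 3.12) below KO1. TPM1 was at 96.1, 38.2 and 50.3 CPM, that is 2.52-fold (2.33 to 2.72) and 1.91-fold (1.79 to 2.04) lower. TPM2 was at 22.9, 10.6 and 13.5 CPM, that is 2.16-fold (1.86 to 2.52) and 1.70-fold (1.49 to 1.93) lower. TPM3 was at 161, 104 and 127 CPM, that is 1.54-fold (1.47 to 1.62) and 1.26-fold (1.21 to 1.32) lower. These 3 genes had the same order of columns as ACTG1 and ACTA2, with NC highest and KO1 lowest. The 7 genes lie on 7 different chromosomes, where the median log2 fold of the measured genes ran from -0.26 (chromosome 9, with TPM2) to 0.38 (chromosome 7, with ACTB) in KO1. In KO2 those medians ran from -0.23 to 0.37 on the same 2 chromosomes.

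**Figure D2:**
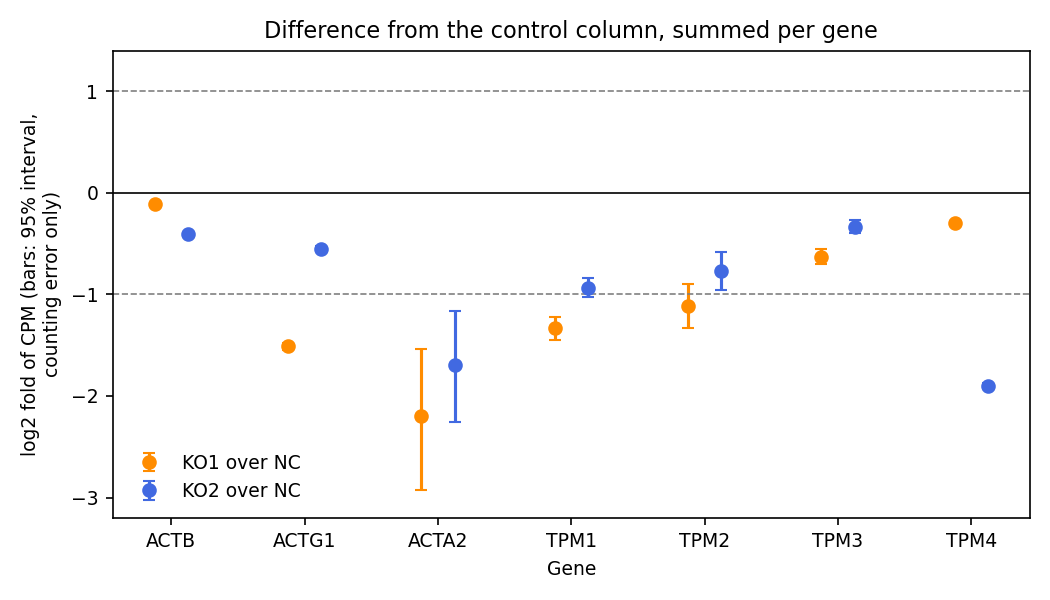
log2 fold of CPM, KO1 over NC and KO2 over NC, with bars for the 95% counting interval (no spread between replicates) and dashed lines at 2-fold. All points lie below 0, and ACTG1 and TPM4 show their larger difference in opposite knockout columns.

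The same size rule was applied to single transcripts. In KO1 against NC, 29 of 53 measured member transcripts were lower and 3 higher, where 27.4% of all 37660 measured transcripts were lower and 23.7% higher (51.1% in all). In KO2 against NC, 13 were lower and 2 higher, where 19.5% were lower and 19.5% higher (39.0% in all). In KO2 against KO1, 21 were higher and 6 lower, where 26.0% were higher and 22.0% lower (48.0% in all). Across the table the leading transcript of a gene, by TPM, differed from NC in 29.5% of 7172 genes in KO1 and in 24.2% in KO2, and in KO2 it differed from KO1 in 29.4%, so a change of leading transcript is common in these estimates. Of the 5 members with a mean of at least 20 CPM, which leaves out ACTA2 and TPM2, all 5 had a transcript whose share of the gene's TPM differed by at least 10 percentage points in KO1 against NC, where 63.5% of genes did. In KO2 against NC 3 of 5 did, where 51.6% of genes did, and in KO2 against KO1 all 5 did, where 63.6% did. Counted by transcript, 10 of 78, 6 of 80 and 10 of 79 transcripts of these 5 members differed by this measure, where 16.9%, 12.7% and 16.8% of transcripts did.

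Among the members, the widest difference in a transcript's share of its gene, 86.2 percentage points, was in ACTB, on chr7:5527151-5563784 (minus strand), which had 13 transcripts in the table. ACTB-207, the retained-intron transcript, had 152738 counts (NC), 1609 counts (KO1) and 116263 counts (KO2), or 3881, 38.4 and 3076 TPM. ACTB-204, the decay-class transcript with the cassette exon, had 1833, 127245 and 1454 counts, or 56.8, 3703 and 46.9 TPM. NC and KO2 were alike in which of the pair was abundant, and KO1 was the reverse. In KO1, ACTB-204 was 84.5-fold (80.7 to 88.5) above NC and ACTB-207 was 78.0-fold (74.2 to 82.0) below it. In KO2, ACTB-204 was 1.26-fold (1.18 to 1.35) and ACTB-207 1.31-fold (1.30 to 1.32) below NC.

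Added together the pair was nearly level between NC and KO1, at 5521 CPM in NC, 5602 CPM in KO1 and 4203 CPM in KO2. Its share of all ACTB counts was 87.8% (87.6 to 87.9) for NC, 95.7% (95.6 to 95.9) for KO1 and 88.4% (88.2 to 88.5) for KO2. Within it, ACTB-204 took 1.19% (1.13 to 1.24) in NC, 98.8% (98.7 to 98.8) in KO1 and 1.24% (1.17 to 1.30) in KO2. Because every base of ACTB-204 is also in ACTB-207, only fragments that touch the 400 intron bases or cross the edges of the cassette exon tell them apart. Fragments at those positions were not analysed here, and the part that the division of fragments had in the difference was not tested. A share difference of at least 50 percentage points in any transcript, a threshold chosen after the values were seen, was found in 13.2% of 7172 genes in KO1 against NC, 8.44% in KO2 against NC and 12.9% in KO2 against KO1. ACTB was among them in both comparisons with KO1.

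The ACTB transcripts that remove the intron were less abundant than this pair. ACTB-201, which encodes the full protein, had 992 counts (NC), 48 counts (KO1) and 1037 counts (KO2), or 29.5, 1.34 and 32.1 TPM. It was 17-fold (12.7 to 23.2) lower in KO1 than in NC. ACTB-205, a short protein-coding transcript of 568 bases that starts 33183 bases upstream of ACTB-207, had 17469, 4811 and 12590 counts, or 1763, 456 and 1323 TPM. It held 29.9%, 10.7% and 28.8% of the gene's TPM and was 2.98-fold (2.89 to 3.08) lower in KO1. Apart from ACTB-204, no ACTB transcript was higher in KO1 by the size rule, and 7 of the 10 measured were lower (all measured transcripts: 23.7% higher, 27.4% lower). The 10 ACTB transcripts other than ACTB-204, ACTB-205 and ACTB-207, with ACTB-201 among them, together held 3.43% of its TPM in NC, 1.21% in KO1 and 3.17% in KO2.

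Class shares were taken of the TPM summed over the protein-coding, decay, retained-intron and processed-transcript classes of protein-coding genes. The decay class was close to level, at 3.04% of this sum in NC, 3.36% in KO1 and 3.0% in KO2. Without ACTB it was 3.06%, 2.95% and 3.01%, so KO1 was the highest of the 3 with ACTB and the lowest without it. The retained-intron class was at 7.03%, 6.92% and 7.56% with ACTB and 6.65%, 6.95% and 7.25% without it. For the retained-intron class too, the order of NC and KO1 was reversed when ACTB was left out.

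**Figure D3:**
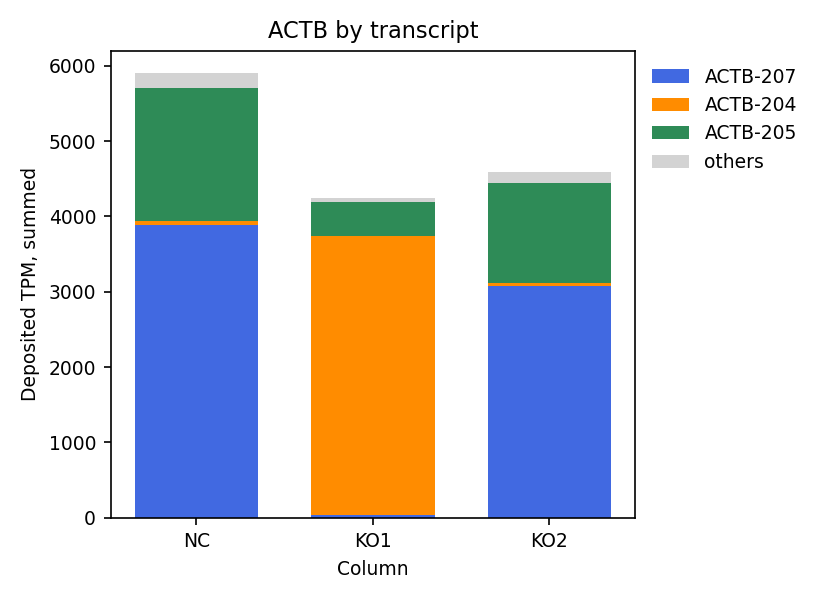
Deposited TPM of ACTB by transcript, stacked, in the NC, KO1 and KO2 columns. ACTB-207 fills most of the NC and KO2 bars (3881 and 3076 TPM) and ACTB-204 most of the KO1 bar (3703 TPM).

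Gamma actin kept its leading transcript in every column. ACTG1, on chr17:81509971-81523847 (minus strand), had 16 transcripts, of which 14 were measured, 8 were lower in KO1, 1 was lower in KO2 and none was higher in either. Of all measured transcripts, 27.4% were lower and 23.7% higher in KO1, and 19.5% lower and 19.5% higher in KO2. ACTG1-201, which encodes the full protein, was at 419 TPM in NC, 136 TPM in KO1 and 325 TPM in KO2, or 31.6%, 43.8% and 33.7% of the gene. It was 2.38-fold (2.30 to 2.46) lower in KO1. Other protein-coding transcripts differed by less or by more there. ACTG1-216 was at 43.0, 18.05 and 29.35 TPM, 1.84-fold (1.66 to 2.03) lower in KO1. ACTG1-214, of the decay class, was 1.91-fold (1.75 to 2.08) lower in KO1, and neither of these passed the size rule. ACTG1-203 was at 209, 15.5 and 191 TPM, 10.4-fold (9.04 to 12) lower in KO1. ACTG1-202 was at 212, 35.1 and 137 TPM, 4.65-fold (4.12 to 5.27) lower in KO1.

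ACTG1-206 was at 99.9, 5.19 and 20.8 TPM, 14.8-fold (12.8 to 17.2) lower in KO1 and 5.0-fold (4.61 to 5.43) lower in KO2. ACTG1-209, which starts farther upstream, had 806 counts (NC), 0 counts (KO1) and 655 counts (KO2), so with a floor of 3 counts per column it was at least 221-fold lower in KO1. Of the retained-intron transcripts, ACTG1-215 was at 97.6, 38.5 and 73.3 TPM and ACTG1-207 at 37.4, 19.3 and 30.2 TPM, and neither passed the size rule. ACTG1-213, with 40, 10 and 43 counts, was 3.29-fold (1.62 to 7.37) lower in KO1. Retained-intron transcripts together made up 10.5%, 19.4% and 11.2% of the gene's TPM.

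ACTA2, on chr10:88935074-88991339 (minus strand), was the least abundant member, with 123 counts (NC), 22 counts (KO1) and 38 counts (KO2). It was 4.59-fold (2.90 to 7.60) lower in KO1 and 3.24-fold (2.23 to 4.79) lower in KO2, with intervals that overlap between the knockout columns. ACTA2-201, which encodes the protein, had 88, 10 and 28 counts and ACTA2-202, which starts farther upstream, had 35, 0 and 0. In NC these 2 held every count of the gene, while in KO1 the other 12 counts were in 2 transcripts of the processed-transcript class, ACTA2-204 and ACTA2-206. At these depths the transcript shares of ACTA2 rest on 22 to 123 counts.

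ACTA2 overlaps FAS (2.43 to 6.46 CPM) and STAMBPL1 (32.9 to 43.1 CPM) on the opposite strand, and the library kit keeps strand. Of 9 genes that mark smooth muscle or myofibroblasts, 6 were under 1 CPM in every column and MYOCD was at 0 in all of them. Their summed level was 85.6 CPM in NC, 150 CPM in KO1 and 95.3 CPM in KO2, most of it SMTN at 55.3, 141 and 88.7 CPM. TAGLN, an actin crosslinker of smooth muscle also made elsewhere, was at 28.1, 7.13 and 4.28 CPM. Summed markers of skeletal or cardiac muscle were at 2.29 to 3.52 CPM, of leukocytes at 1.65 to 6.53 CPM, of fibroblasts at 21.5 to 50.3 CPM and of endothelium at 3.26 to 7.82 CPM, and their part in the member values was not tested. Of these lists 8 of 10, 4 of 5, 3 of 5 and 2 of 4 genes were under 1 CPM in every column.

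TPM4, on chr19:16067021-16103005 (plus strand), had the widest difference of the members in KO2. TPM4-201, the short protein from the internal start, was at 552 TPM in NC, 397 TPM in KO1 and 203 TPM in KO2. It was 1.07-fold (1.05 to 1.09) lower in KO1 and 2.83-fold (2.77 to 2.90) lower in KO2 in CPM. TPM4-213, an unspliced retained-intron transcript of 2672 bases near the 3′ end, was at 230, 89.1 and 0.96 TPM, with 10772, 4447 and 44 counts. It was 1.99-fold (1.92 to 2.06) lower in KO1 and 245-fold (182 to 337) lower in KO2. Of its bases 1075 are shared with TPM4-201 and 1597 are not.

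The distal start of TPM4 gives the long protein, encoded by TPM4-202. It was at 11.1 TPM in NC, 2.63 TPM in KO1 and 21.6 TPM in KO2, 3.24-fold (2.48 to 4.27) lower in KO1 and 1.87-fold (1.61 to 2.17) higher in KO2, which does not reach the 2-fold of the size rule. TPM4-211, a protein-coding transcript that starts farther upstream, had 0 counts (NC), 52 counts (KO1) and 53 counts (KO2), so with the floor of 3 counts it was at least 21.1-fold higher in KO1 and at least 17.7-fold higher in KO2. It was the only TPM4 transcript higher in KO2 by the size rule. Transcripts that start within 1500 bases of TPM4-202 summed to 9.86, 5.30 and 20.3 CPM, and those that start near TPM4-201 to 923, 860 and 326 CPM. The distal start thus held 1.37% of TPM4 TPM in NC, 1.39% in KO1 and 10.8% in KO2. TPM4-214, a noncoding transcript with 53, 351 and 65 counts, was 8.06-fold (6.03 to 11.0) higher in KO1. Its deposited position is not that of release 29.

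TPM1, on chr15:63042632-63071915 (plus strand), was led by TPM1-208, a protein-coding transcript of the internal start, in all columns. TPM1-208 was at 73.2 TPM in NC, 20.6 TPM in KO1 and 35.7 TPM in KO2, 2.74-fold (2.5 to 3.0) lower in KO1 and 2.14-fold (1.98 to 2.31) lower in KO2. The internal-start class of TPM1 summed to 84.4, 33.1 and 43.1 CPM. Transcripts from other starts summed to 8.89, 2.48 and 3.14 CPM, 3.59-fold (2.68 to 4.87) lower in KO1 and 2.83-fold (2.21 to 3.65) lower in KO2. The distal-start class was at 2.82, 2.56 and 4.11 CPM, with a fold of 0.91 (0.64 to 1.29) in KO1 that includes equality and of 1.46 (1.08 to 1.96) in KO2. Of its 79, 59 and 115 counts, 58, 53 and 106 were those of TPM1-228, a retained-intron transcript, so these values say little of the long protein-coding forms.

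TPM1-226 had 3 counts (NC), 3 counts (KO1) and 174 counts (KO2), 58.0-fold (19.5 to 284) higher in KO2, where it held 18.7% of the gene's TPM. TPM1-218 and TPM1-203, also of the internal start, had 69 and 46 counts in the NC column and 0 and 0 in KO2, at least 23.0-fold and at least 15.3-fold lower. TPM1-204 was at 8.14, 1.89 and 2.57 TPM, and TPM1-210, of the decay class, at 3.51, 0.27 and 0.22 TPM.

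TPM3, on chr1:154155304-154194648 (minus strand), had nearly all of its counts from the internal start. Its distal-start transcripts, which include the slow skeletal muscle form, had 3, 2 and 6 counts, which is at or near the floor of 3 counts, so no fold is given. TPM3-212 led in NC, with 35.4 TPM, and was at 5.79 TPM in KO1 and 14.6 TPM in KO2, 4.71-fold (4.2 to 5.30) and 2.53-fold (2.33 to 2.76) lower. TPM3-208 led in both knockout columns, at 28.0 TPM in NC, 41.2 TPM in KO1 and 42.9 TPM in KO2, 1.90-fold (1.76 to 2.06) and 1.47-fold (1.36 to 1.59) higher. Neither difference of TPM3-208 reached the 2-fold of the size rule. The gene sum adds transcripts that differed in opposite directions.

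TPM3-208 is 2063 bases and TPM3-212 is 3131 bases long. They share 2027 bases, with 36 only in TPM3-208 and 1104 only in TPM3-212. TPM3-205 was at 21.1 TPM in NC, 0 TPM in KO1 (1 count) and 15.4 TPM in KO2. The share of TPM3-208 in the gene was 25.2% in NC, 69.7% in KO1 and 44.0% in KO2. The processed copies TPM3P9 and TPM3P6 were the only 2 of 59 actin and tropomyosin copies in the table with a mean of at least 1 CPM. They were at 7.50, 17.4 and 13.5 CPM and at 1.14, 3.0 and 2.25 CPM, opposite in order to TPM3, and whether reads moved between these and TPM3 was not tested.

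TPM2, on chr9:35681992-35691020 (minus strand), was led by TPM2-203, which was at 9.91 TPM in NC, 3.64 TPM in KO1 and 5.17 TPM in KO2. It was 2.10-fold (1.73 to 2.56) lower in KO1 and 2.0-fold (1.67 to 2.39) lower in KO2, just inside and just outside the size rule. TPM2-205, a retained-intron transcript, was at 3.80, 0.47 and 0.69 TPM, or 91, 12 and 16 counts. It was 6.23-fold (3.40 to 12.5) and 5.69-fold (3.32 to 10.4) lower. TPM2-201 had 24, 32 and 37 counts and a fold of 1.62 (0.93 to 2.88) in KO1 and 1.54 (0.90 to 2.69) in KO2, both including equality.

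**Figure D4:**
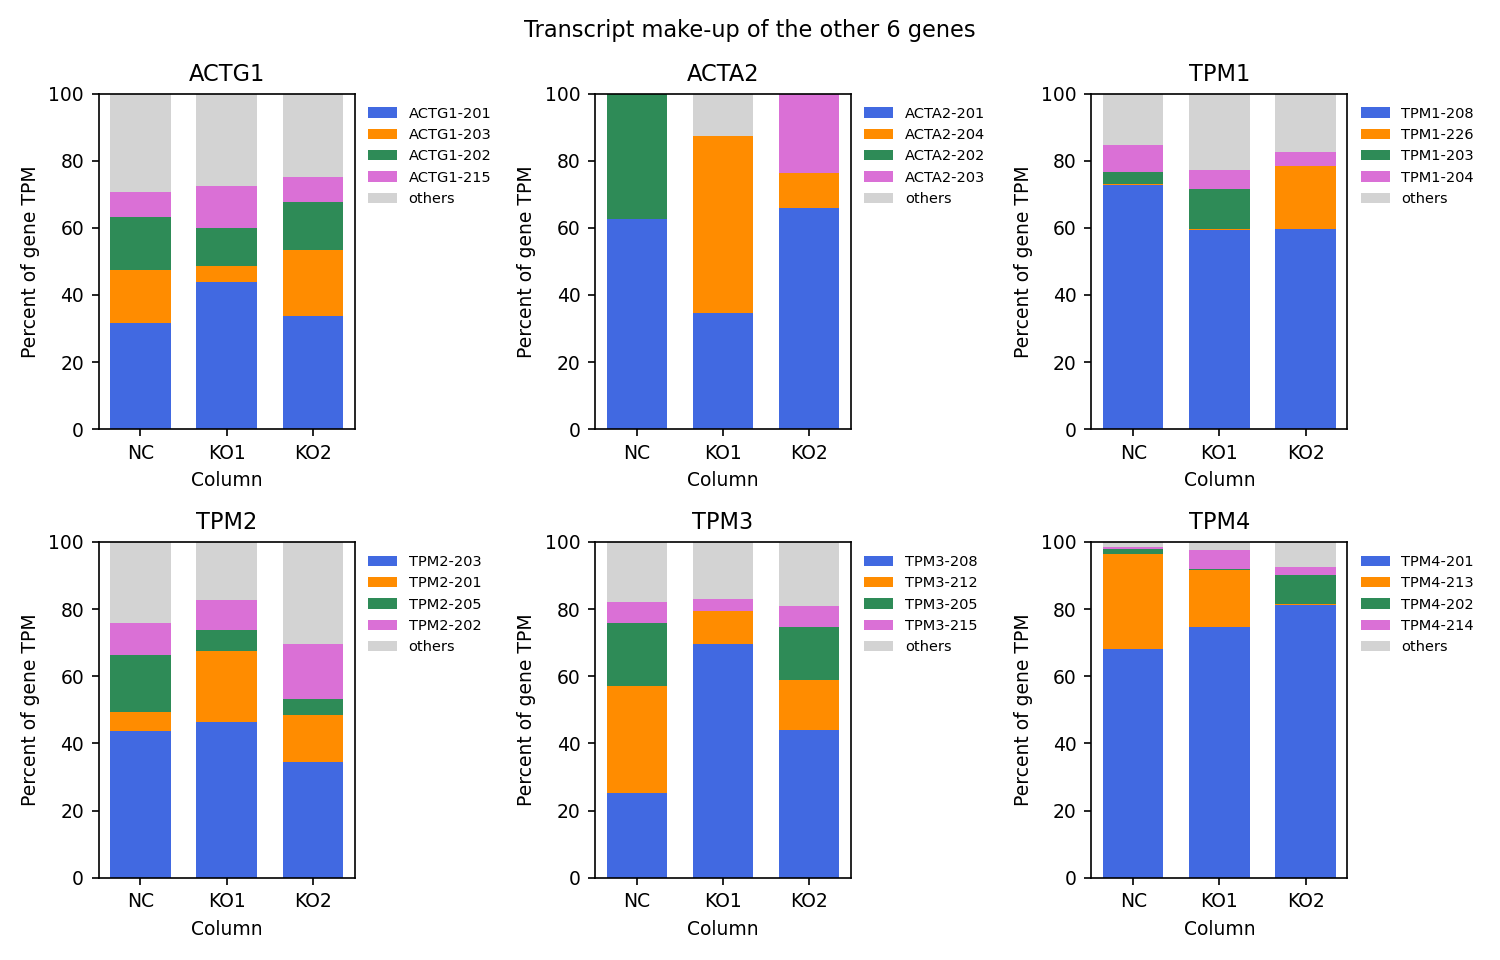
Percent of each gene's TPM held by its 4 most prominent transcripts and by the others, in the NC, KO1 and KO2 columns. The leading transcript is the same in all columns for ACTG1, TPM1, TPM2 and TPM4, while TPM3-208 goes from 25.2% in NC to 69.7% in KO1 and TPM4-213 from 28.3% in NC to 0.38% in KO2.

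Promoters were searched because these genes are known targets of SRF. The CArG box was searched by its usual letters, which read the same on both strands, in RefSeq promoters (GRCh38.p14, 250 bases before to 50 after each start). Only exact matches to these letters were counted, so a promoter without a match may still hold a box with a changed letter. The exact box was in 454 of 35116 promoters (1.29%). Of the members, 6 of 7 were matched, and the box was in 1 of 1 promoter of ACTG1 and in 1 of 3 of TPM4, and in none of ACTA2, TPM1, TPM2 and TPM3. The TPM4 promoter with the box is that of the distal start. The windows below are at chr17:81512864-81512953 (minus strand) and chr19:16067305-16067394 (plus strand), with the box in capitals, 94 and 173 bases before the RefSeq start. In release 29, 28 exonic bases of ACTG1-201 lie inside the ACTG1 window and 2 of TPM4-211 inside the TPM4 window, so not every start of these genes is downstream of the window.
ACTG1: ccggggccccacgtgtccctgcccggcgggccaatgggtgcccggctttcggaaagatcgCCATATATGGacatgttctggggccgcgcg
TPM4: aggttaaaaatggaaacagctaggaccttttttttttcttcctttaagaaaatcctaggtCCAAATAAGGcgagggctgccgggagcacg
ACTG1 was lower in KO1 and, by less, in KO2, while the summed distal-start transcripts of TPM4 were lower in KO1 and higher in KO2, with TPM4-211 higher in both. SRF was at 70.8 CPM in NC, 92.9 CPM in KO1 and 71.5 CPM in KO2. No binding was measured here.

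The proteins that work on actin filaments were followed through 7 lists with 113 genes, of which 98 had a mean of at least 1 CPM. In KO1 against NC, 28 (28.6%) were lower and 4 (4.08%) higher, where 17.4% of all measured genes were lower and 15.4% higher. In KO2 against NC, 16 (16.3%) were lower and 4 (4.08%) higher, where 9.98% of all measured genes were lower and 11.0% higher. The counts of each list below stand beside these same shares, and no list was tested against the other genes. Their median log2 fold was -0.44 in KO1 and -0.35 in KO2. The members' own medians, given above, were farther below 0.

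Among 16 monomer-binding and severing proteins, 5 were lower in KO1 and 1 in KO2, with none higher (17.4% and 9.98% of all genes were lower). Profilin 2 (PFN2), which loads monomers onto growing ends, was at 111 CPM in NC, 5.78 CPM in KO1 and 29.5 CPM in KO2. Gelsolin (GSN), which severs filaments, was at 76.8, 29.3 and 59.5 CPM, and CORO1B, a coronin, at 133, 64.7 and 102 CPM, both lower by the rule in KO1 only. TMSB10, which sequesters monomers and was the highest of the list, was at 3962, 2806 and 2218 CPM and did not pass. Of 3 other actins or actin-related proteins measured, none passed, and ACTL6A was at 88.2, 93.6 and 94.1 CPM.

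Of 23 nucleation genes, 2 were higher and 2 lower in KO1 and 1 higher and 2 lower in KO2, where 32.8% and 21.0% of all genes passed in either direction. The formin FMNL3 was at 18.1, 38.7 and 48.7 CPM, higher in both. EVL, which protects growing ends, was at 33.7, 7.39 and 15.5 CPM, lower in both, and its relative ENAH was at 74.0, 50.04 and 34.8 CPM, lower in KO2. WASF1, which activates Arp2/3, was at 18.7, 61.7 and 35.3 CPM, higher in KO1. ARPC5, an Arp2/3 subunit, was at 356, 288 and 332 CPM and did not pass.

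Of 9 capping genes, 5 were lower and none higher in KO1, and 3 were lower and 2 higher in KO2 (all genes: 17.4% lower in KO1, 9.98% lower and 11.0% higher in KO2). ADD1 (adducin) was at 199, 19.3 and 54.4 CPM, CAPG at 184, 82.2 and 71.3 CPM, and TMOD1, which caps pointed ends bound by tropomyosin, at 3.50, 0.48 and 0.43 CPM. CAPZB, a subunit of capping protein, was at 219, 75.6 and 126 CPM, lower in KO1. CAPZA1, another subunit, was at 120, 68.9 and 386 CPM, higher in KO2.

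Of 19 crosslinkers and bundlers, 7 were lower and 2 higher in KO1, and 4 were lower and none higher in KO2 (all genes: 17.4% lower and 15.4% higher in KO1, 9.98% lower in KO2). LCP1 (plastin) was at 591, 73.7 and 71.8 CPM, FLNC at 173, 33.0 and 63.4 CPM and calponin 2 (CNN2) at 86.0, 27.5 and 40.6 CPM. Alpha-actinin 4 (ACTN4) was at 1336, 288 and 926 CPM, lower in KO1. FLNA was at 1137, 1594 and 1459 CPM and did not pass.

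Of 12 genes of nonmuscle myosin II and its kinases, 4 were lower in KO1, and 2 were lower and 1 higher in KO2 (all genes: 17.4% lower in KO1, 9.98% lower and 11.0% higher in KO2). The myosin light chains MYL9 and MYL6 were at 311, 89.9 and 88.1 CPM and at 414, 182 and 279 CPM. The heavy chain MYH9 was at 1620.1, 1365 and 1041 CPM and did not pass, and RHOC was at 170, 194 and 70.0 CPM. Of 16 genes of SRF, its cofactors and focal adhesions, 5 were lower in KO1 and 4 in KO2, with none higher (17.4% and 9.98% of all genes were lower). They include vinculin (VCL) at 225, 112 and 87.9 CPM, ELK3 at 98.9, 13.5 and 26.2 CPM and FHL1 at 39.2, 1.35 and 7.28 CPM, while ILK was at 217, 71.9 and 122 CPM. Talin (TLN1) was at 587, 520 and 411 CPM and did not pass.

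**Figure D5:**
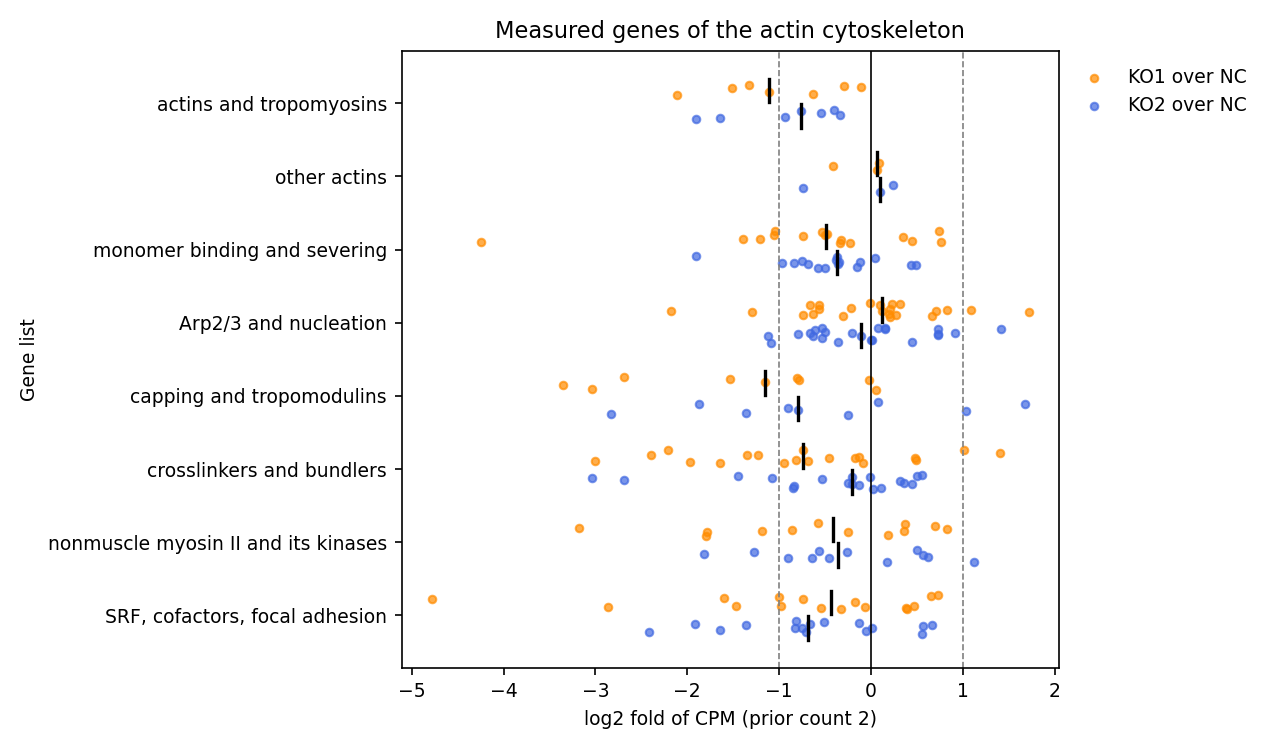
log2 fold of CPM for the 7 actin and tropomyosin genes and for the measured genes of 7 lists, KO1 over NC and KO2 over NC, 1 point per gene, with black bars for medians and dashed lines at 2-fold. The member medians are -1.11 and -0.76.

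The genes whose folds lay nearest to a member were found as the distance between the pair of log2 folds against NC, over protein-coding genes with a mean of at least 100 CPM, which rests on 3 columns. ACTB had 146 of 1802 such genes within 0.25 of it, with TRIR nearest, and TPM3 had 96, with EXOSC10 nearest. ACTG1 had 14, with CHD4 nearest, TPM1 had 29, with CUL4A nearest, and TPM2 had 34, with DDX24 nearest. TPM4 had 1, PIP5K1A, and ACTA2 had 1, NSD2. The number for ACTA2 says little, because its counting interval (2.90-fold to 7.60-fold lower in KO1) is wider than the 0.25 used here. That of TPM2 (1.86-fold to 2.52-fold lower in KO1) is also wider than 0.25 on the log2 scale, so its number is uncertain too. TPM4 thus had few such genes and ACTB many, but the members also differ in the size of their folds. ACTB was 1.08-fold (KO1) and 1.32-fold (KO2) below NC, while TPM4 was 1.23-fold (KO1) and 3.74-fold (KO2) below it. Whether other genes with folds as large as those of TPM4 have as few near genes was not tested. These numbers therefore do not tell whether the pair of folds of any member was unusual for its size.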

How the data were processed

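RNA-seq values of 6 samples in 3 groups were deposited as 1 table, with 1 column per group for each unit. Per the file headers the values are counts, TPM and FPKM for each transcript. The deposited Count values were read here to be estimated counts of fragments, which the authors gave as whole numbers. The deposited TPM was used for levels and shares, and the 3 FPKM columns were not used. The submitters' processing notes name CASAVA, Bowtie2, featureCounts and hg38, with no version or role. The tool that estimated transcript values, and whether a column is 1 library or both, are not given in the sources used here.

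Counts were summed per gene and scaled by TMM over 18289 genes (edgeR 4.0.16, R 4.3.3). With 1 column per group there are 0 residual degrees of freedom and no test. In its place the size rule asks for a log2 fold of at least 1 (prior count 2), an exact interval that excludes equality, and at least 1 CPM on average. The share comparison uses genes with a mean of at least 20 CPM. Member transcripts qualified for naming at 5% or more of the gene's TPM or count in a column, which 42 of 115 reached. Not all of these are described, and ACTG1-210, TPM1-209 and ACTA2-203 are among those left out. From each list, up to 3 genes per direction passing in both knockout columns, up to 2 passing in 1 only and the most abundant gene were named, and copies at 1 CPM or more. TAGLN, SMTN, MYOCD, SRF, FAS, STAMBPL1, VIM, CD44, EGFR, KRT18, ERBB2, PGR, ESR1, ACTB-201, ACTG1-213, TPM4-211 and the start classes fall outside this rule and were chosen after their values were seen. The members and lists were chosen with earlier results of these data known.

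Structures, classes and sequences come from GENCODE release 29, and whether the authors used it is not stated. It places 196250 of all transcripts and 94 of 115 member transcripts at the deposited position. Of 26490 transcripts at the same position, 99.99% had a length implied by count and TPM within 5% of that release. ACTB-201, ACTG1-201, ACTG1-206, TPM1-204, TPM1-208, TPM2-203 and TPM4-214 are among those placed elsewhere, so their deposited models may differ from the sequences shown. Distances between ACTB starts are from deposited positions. Some sequences and 1 gene of the lists are not reported here.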

Additional observations from a re-analysis of the deposited data

How the results depend on the processing

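No paired analysis was possible because the columns carry no replicate number, and leaving out each replicate could not be run for the same reason. Every member log2 fold was recomputed under library-size scaling, DESeq2 size factors (DESeq2 1.42.0), TMM over nuclear protein-coding genes, deposited TPM, a prior count of 0.5 and sums with copies. Of 126 such values 125 kept their sign. The exception was ACTB in KO2 against KO1, at 0.11 with deposited TPM and -0.30 with TMM. ACTG1 in the same comparison was at 1.63 with TPM, 1.23 with library size and 0.96 with TMM, so it was above 2-fold with the first 2 only. Library-size scaling moved the median of all genes to -0.24 in KO1 against NC and 0.30 in KO2 against KO1, and deposited TPM moved it to -0.33 and 0.39. The higher share of passing genes in KO1 against NC was 46.9% with TMM, 33.3% with library size and 23.8% with TPM, and in KO2 against KO1 it was 57.1%, 74.8% and 82.9%. With copies summed, TPM3 was at -0.45 in place of -0.63 in KO1 against NC and at -0.24 in place of -0.34 in KO2 against NC. The members lower in KO1 numbered 4, but 3 with a minimum of 5 CPM, which ACTA2 does not reach, and 5 at a 1.5-fold threshold. The members lower in KO2 numbered 2, but 1 with that minimum and 4 at 1.5-fold. Genes passing in KO2 against NC numbered 3048, but 1915 with that minimum, 5164 with none and 6265 at 1.5-fold. In KO1 against NC they numbered 4766, and 7888 at 1.5-fold. In KO2 against KO1 they numbered 3788, but 5702 with no minimum and 6956 at 1.5-fold. With the 5 CPM minimum, passing transcripts numbered 8955, 6453 and 8362 in place of 19238, 14697 and 18093 (KO1 against NC, KO2 against NC, KO2 against KO1). Transcripts whose share differs numbered 10174, 7904 and 10139 at 10 percentage points and 5204, 3759 and 5117 at 20. Counting intervals do not measure the spread between cultures, which limits every fold here.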
